A study of Rattus norvegicus with 9 samples.

Results

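The EGF receptor family and its ligands were followed here across 9 rat bladder arrays. The 9 genes were chosen by name, with earlier results of these data known: the receptors Egfr, Erbb2 and Erbb3, and the ligands Areg (amphiregulin), Ereg (epiregulin), Hbegf (heparin-binding EGF-like growth factor), Tgfa (transforming growth factor alpha), Btc (betacellulin) and Egf. All 9 had a feature among the 15168 genes that the array's accessions matched, and 8 of them were bright enough to be tested, of 11047 genes tested in all.

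The ligands of this family are made as membrane-anchored precursors, cut free by metalloproteases such as Adam17, and bound by Egfr or Erbb4, which pair with each other, with Erbb2 (a receptor with no ligand of its own) or with Erbb3 (which has a weak kinase). Bound receptors switch on the Ras-ERK and the phosphatidylinositol 3-kinase-AKT cascades, and several ligand genes are themselves switched on by ERK. In the bladder the urothelium makes and responds to these ligands, and Hbegf and Egf are known mitogens of cultured bladder muscle.

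The arrays came from female rats at 3 weeks, 3 arrays in each of 3 groups: sham operation (the urethra not tied), partial bladder outlet obstruction (pBOO), in which the proximal urethra was tied with a 1 mm catheter in place, and pBOO with tolterodine, a blocker of muscarinic acetylcholine receptors. RNA of whole bladder was labelled with Cy3, 1 µg per array. The labels give no strain, age, dose or start of treatment. The labels speak of 5 specimens per group and do not say whether an array carries 1 animal or a pool, so p-values measure the spread between arrays. The letters the surgical protocol gives to obstruction and sham are the reverse of those in the codes of the arrays titled pBOO and sham. Group names below follow the titles, so "pBOO" means the arrays titled pBOO; exchanging the names would turn the sign of every difference between pBOO and sham, and what is given below for tolterodine against pBOO would then be tolterodine against sham.

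A stretch of promoter is shown first for the ligand Areg and the receptor Egfr. Areg is 1 of 4 ligands that passed the test in the direction opposite to Egfr. Both sequences are from RefSeq on the GRCr8 assembly, the 250 bases before the annotated start of transcription, read 5′ to 3′ on the gene's strand: Areg is at chr14:17265642-17265891 on the minus strand and Egfr at chr14:95378376-95378625 on the plus strand. Capitals mark TGACGTCA (the cAMP response element), GGGCGG (the Sp1 box, which reads CCGCCC on the other strand) and TATAAA (the TATA box).
Areg: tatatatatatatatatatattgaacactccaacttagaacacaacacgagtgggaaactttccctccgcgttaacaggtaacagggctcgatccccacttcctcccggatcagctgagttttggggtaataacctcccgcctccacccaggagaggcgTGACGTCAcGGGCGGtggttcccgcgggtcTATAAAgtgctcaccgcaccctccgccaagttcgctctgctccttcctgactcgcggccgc
Egfr: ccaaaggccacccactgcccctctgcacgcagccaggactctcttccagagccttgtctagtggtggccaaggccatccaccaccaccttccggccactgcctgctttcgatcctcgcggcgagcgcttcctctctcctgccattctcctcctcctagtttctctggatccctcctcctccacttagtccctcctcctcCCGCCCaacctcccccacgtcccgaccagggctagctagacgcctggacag
The Areg stretch holds all 3 motifs, the cAMP response element at -91, the Sp1 box at -82 and the TATA box at -61, counted to the motif's first base. The Egfr stretch has GC content of 63.6% and holds 1 Sp1 box, at -51 on the opposite strand.

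Promoters of 7 of the 9 genes were matched; Ereg and Erbb3 were not. With both strands searched in 33469 promoters of this length, TGACGTCA was in 1.59%, GGGCGG in 30.5% and TATAAA in 12.9%. The shorter core TGACG, which lies inside TGACGTCA, was in 18.2% and stood alone in the Hbegf promoter at -193. Sp1 boxes were also found in Erbb2 (-98), Tgfa (-154) and Btc (-127). The AP-1 motif TGANTCA, in 6.34% of all promoters, was in none of the 7 windows, which says only that these letters are not there.

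The unit below is the log2 of the deposited spot intensity minus the log2 of that array's 75th percentile, so that 0 is the 75th percentile of the array's own spots. That percentile ran from 523 to 1441 intensity units over the 9 arrays, 72.1% to 80.1% of spots were well above background, and 0 spots were saturated. Probes differ in how brightly they light up, so levels are compared between arrays for 1 gene and never between genes. Precision is set by the small number of arrays, with a median standard error (SE) of 0.17 for a log2 difference. A gene is called where limma's Benjamini-Hochberg adjusted p, over all 11047 genes, is under 0.05. Scan times place the 3 pBOO arrays on 1 slide with sham 1, tolterodine 1 and 2 on another with sham 2 and 3, and tolterodine 3 alone on the last, so no slide holds both tolterodine and pBOO.

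In the arrays titled pBOO, 4 ligands (Areg, Ereg, Hbegf and Tgfa) were lower than in sham and the receptor Egfr was higher. In the arrays titled pBOO with tolterodine the same 4 ligands were higher than in pBOO and Egfr was lower. Erbb2, Erbb3 and Egf did not pass the test in any of the 3 comparisons, and Btc was too dim to test. These calls are read against a background in which a large share of all genes passed: 42.5% between pBOO and sham (20.8% higher, 21.7% lower), 41.3% between tolterodine and pBOO (26% higher, 15.3% lower) and 24.4% between tolterodine and sham (17.8% higher, 6.58% lower). Of the 8 members tested, 5, 5 and 3 passed in these comparisons. How many of all genes separate the groups without overlap was not counted, so such separation is given below only as a description.

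**Figure D1:**
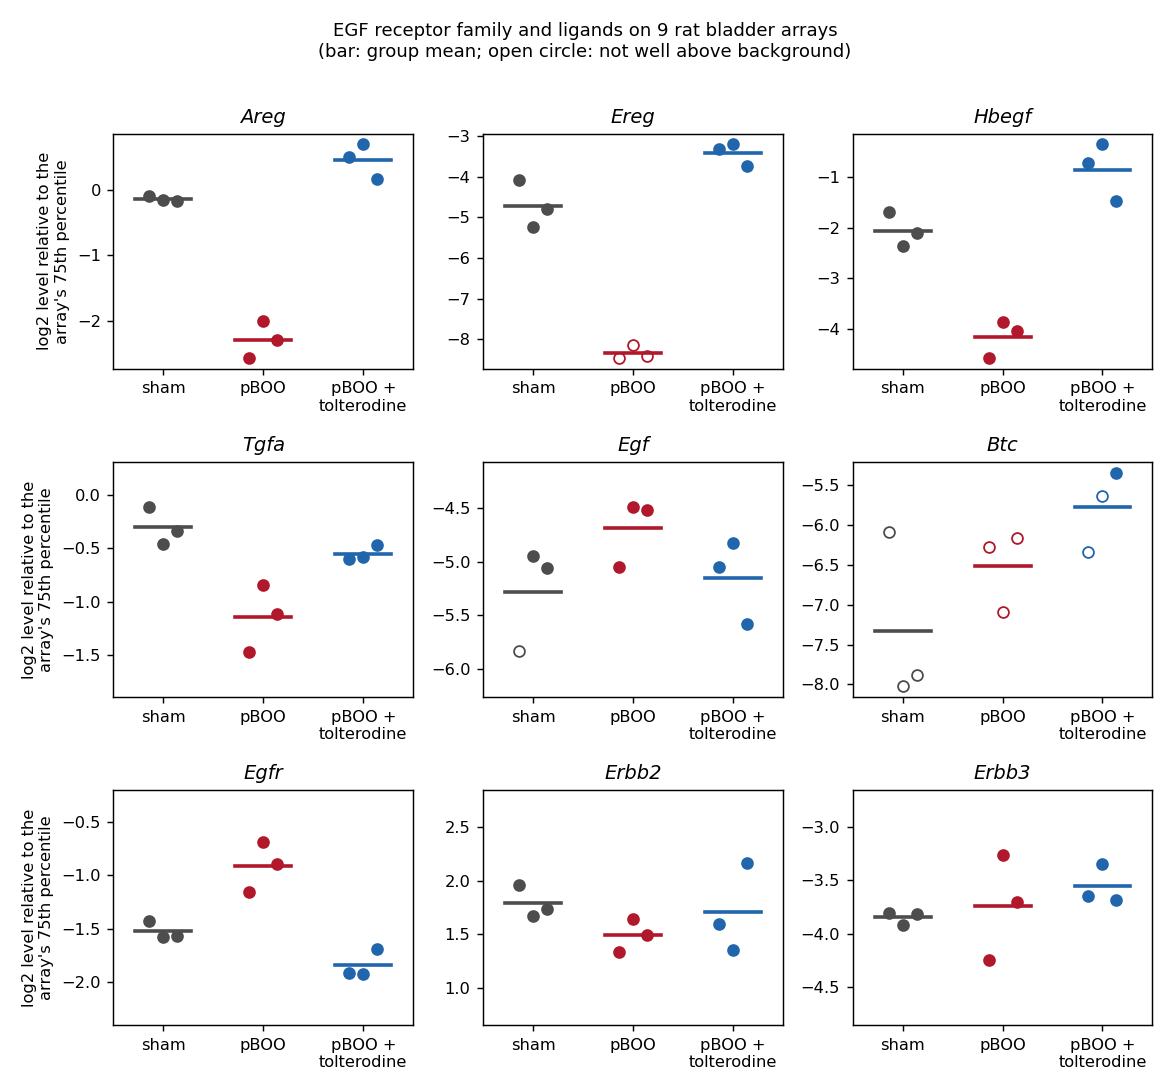
Level of each of the 9 genes on each array (log2 relative to the array's 75th percentile), by group, with 1 point per array and a bar at the group mean; open circles are spots not well above background. Areg, Hbegf and Ereg were lowest on the 3 pBOO arrays and highest on the 3 tolterodine arrays with no overlap between groups, and Egfr had the opposite order. The Ereg spots on the 3 pBOO arrays were not well above background. How many of all genes separate the groups in this way was not counted.

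Areg, a ligand of Egfr that epithelia release, was spotted 10 times on every array, and the SD between its spots was 0.0178 to 0.0589. Its level was -0.09, -0.16 and -0.16 on the 3 sham arrays, -2.57, -2.003 and -2.30 on the pBOO arrays, and 0.50, 0.70 and 0.17 on the tolterodine arrays. Every pBOO array lay below every sham array, and every sham array below every tolterodine array. The difference of pBOO from sham was -2.15 (SE 0.18; limma adjusted p = 5.2e-05), which is 4.44-fold lower, and within the slide that holds both groups it was -2.20. Tolterodine was 6.71-fold above pBOO, a log2 difference of 2.75 (SE 0.18; limma adjusted p = 1.25e-05).

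Hbegf, a ligand of Egfr and Erbb4 that is also a mitogen for smooth muscle, stood at -1.69, -2.36 and -2.11 in sham, -4.57, -3.87 and -4.04 in pBOO, and -0.72, -0.35 and -1.48 with tolterodine. The order of the groups was that of Areg, again with no overlap. The pBOO arrays were 4.30-fold below sham, a log2 difference of -2.10 (SE 0.31; limma adjusted p = 9.29e-04), and -2.47 within their shared slide. The tolterodine arrays were 9.90-fold above pBOO, a log2 difference of 3.31 (SE 0.31; limma adjusted p = 8.13e-05). With another background correction (normexp), which adds an offset of 50 before the log is taken, these differences were -1.29 and 2.21, both still called.

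Ereg, a ligand of Egfr and Erbb4, was well above background on all 3 sham arrays (-4.09, -5.24 and -4.80) and all 3 tolterodine arrays (-3.31, -3.20 and -3.73). On the pBOO arrays it was not well above background on any of the 3, where its spot read -8.46, -8.13 and -8.40. The size of its difference from pBOO is therefore only a lower bound, taken against the dimmest signal that counted as well above background on each pBOO array (mean -6.04). Ereg was at least 2.52-fold lower in pBOO (measured mean -8.33) than in sham (mean -4.71). It was at least 6.17-fold higher with tolterodine (mean -3.41) than in pBOO. Limma tested the measured differences and not these bounds. They were -3.62 (limma adjusted p = 3.34e-05) and 4.91 (limma adjusted p = 5.74e-06), so these p-values rest on pBOO readings not well above background. With normexp the differences were -0.98 and 1.48, both still called (limma adjusted p = 0.0148 and 0.00169).

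Tgfa, a ligand of Egfr made by many epithelia, showed smaller differences. It stood at -0.12, -0.46 and -0.34 in sham, -1.47, -0.84 and -1.11 in pBOO, and -0.60, -0.59 and -0.48 with tolterodine. Here the pBOO arrays were below both other groups, and each tolterodine array was below all 3 sham arrays. The pBOO arrays were 1.79-fold below sham, a log2 difference of -0.84 (SE 0.17; limma adjusted p = 0.00434), and tolterodine was 1.50-fold above pBOO, a difference of 0.59 (SE 0.17; limma adjusted p = 0.0217). Within the shared slide the first was -1.03 and no longer passed (limma adjusted p = 0.0693), and the second was lost in 4 of the 6 fits that left out 1 of the arrays compared (tolterodine 1 or 3, pBOO 1 or 3), with 0.42 as its lowest value, and with slide as a fixed block (0.83; limma adjusted p = 0.07). A second Tgfa feature read -0.38 for pBOO against sham and 0.48 for tolterodine against pBOO, neither past the threshold (limma adjusted p = 0.105 and 0.0542 over 20474 features, of which 40.9% and 38.6% passed; 23.9% did so for tolterodine against sham).

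Egf, the founding ligand, was dim: it was well above background on 8 of 9 arrays, and sham 1 was the exception. Its level was -5.84, -4.94 and -5.06 in sham, -5.05, -4.49 and -4.51 in pBOO, and -5.05, -4.82 and -5.58 with tolterodine. The groups overlapped, and the difference of pBOO from sham was 0.60 (95% interval -0.05 to 1.25; limma adjusted p = 0.123). That value depended on the setting: it was 1.15 with slide as a fixed block (limma adjusted p = 0.00968), 0.32 without sham 1 (limma adjusted p = 0.329) and -0.07 with normexp (limma adjusted p = 0.829). Btc, a ligand of Egfr and Erbb4, was well above background on 1 of 9 arrays (tolterodine 3), and no difference is given for it.

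Egfr, the receptor that binds these ligands, differed in the direction opposite to Areg, Ereg, Hbegf and Tgfa. It stood at -1.43, -1.58 and -1.57 in sham, -1.16, -0.69 and -0.90 in pBOO, and -1.91, -1.92 and -1.69 with tolterodine. Every pBOO array was above every sham array, and every tolterodine array below. The pBOO arrays were 1.52-fold above sham, a log2 difference of 0.61 (SE 0.14; limma adjusted p = 0.00851). Within the shared slide the difference was 0.51 and did not pass (limma adjusted p = 0.17), nor did it with slide as a fixed block (limma adjusted p = 0.0581). Tolterodine was 1.90-fold below pBOO, a difference of -0.93 (SE 0.14; limma adjusted p = 0.00112).

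Erbb2, the partner receptor, stood at 1.96, 1.67 and 1.73 in sham, 1.33, 1.64 and 1.50 in pBOO, and 1.59, 1.35 and 2.16 with tolterodine. Sham lay just above pBOO on every array, and tolterodine overlapped both. The difference of pBOO from sham was -0.30 (95% interval -0.76 to 0.16; limma adjusted p = 0.266), and that of tolterodine from pBOO was 0.21 (-0.25 to 0.67; limma adjusted p = 0.427). The other 2 kept Erbb2 features did not pass in any comparison.

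Erbb3, a receptor of neuregulins, stood at -3.80, -3.92 and -3.82 in sham, -4.25, -3.27 and -3.70 in pBOO, and -3.64, -3.35 and -3.68 with tolterodine. The pBOO arrays spread over the range of both other groups. The interval of the difference of pBOO from sham ran from -0.40 to 0.61, so changes of the size seen for Areg or Hbegf lie outside it, while one of the size seen for Egfr is at its edge.

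Between tolterodine and sham, which differ in both surgery and drug, 3 members passed and all 3 were higher with tolterodine. Ereg was 2.45-fold higher, a log2 difference of 1.30 (SE 0.27; limma adjusted p = 0.011), Hbegf 2.30-fold, a difference of 1.20 (SE 0.31; limma adjusted p = 0.0241), and Areg 1.51-fold, a difference of 0.59 (SE 0.18; limma adjusted p = 0.0398). These calls were the least steady: with normexp none of the 8 passed (Ereg 0.50, Hbegf 0.93, Areg 0.55; 3 were under an unadjusted p of 0.05), and without tolterodine 1, tolterodine 2, sham 2 or sham 3 only 1 of 8 did, each time Ereg. Within the slide that holds both groups the differences were larger: 1.76 for Ereg, 1.70 for Hbegf and 0.76 for Areg, all called. That fit holds only tolterodine 1 and 2 and sham 2 and 3. It called 4 of 8 members, against 53.2% of all genes. Egfr was 1.25-fold lower with tolterodine than in sham, a difference of -0.32 that did not pass (95% interval -0.64 to 0.00; limma adjusted p = 0.131), and within the slide it was -0.35 and called (limma adjusted p = 0.0181).

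**Figure D2:**
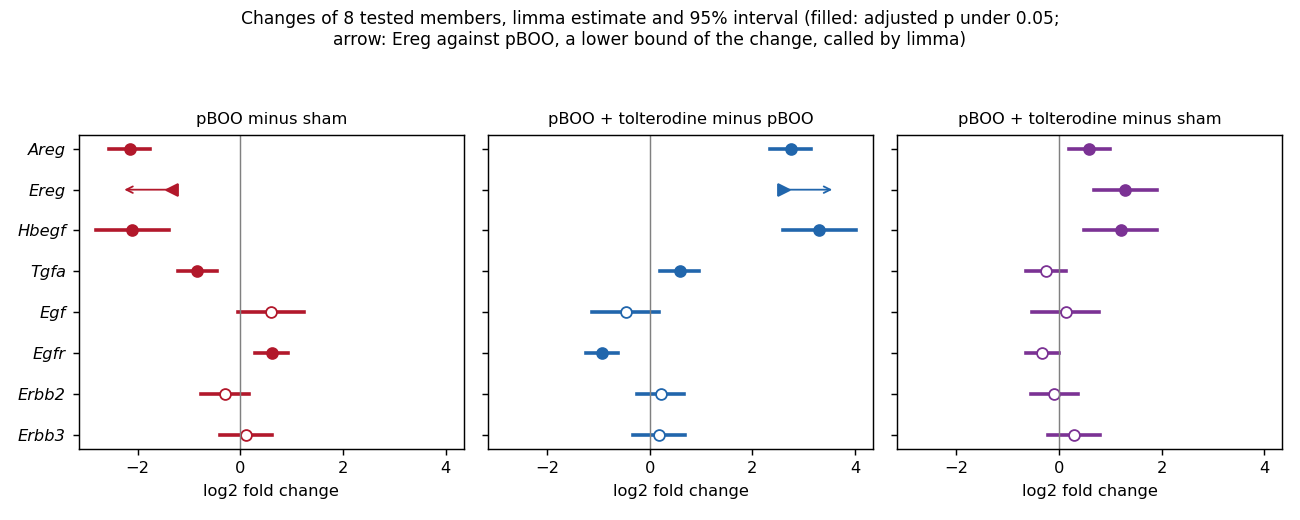
Log2 differences of the 8 tested genes in the 3 comparisons, with 95% intervals; filled points passed the test, open points did not, and arrows start at the lower bound of Ereg against pBOO. Areg, Hbegf, Ereg and Tgfa lie left of 0 for pBOO against sham and right of 0 for tolterodine against pBOO, and Egfr lies on the other side in both.

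Across the 9 arrays the 3 ligands with the largest differences followed each other closely. Pearson's r was 0.988 for Areg and Ereg, 0.981 for Hbegf and Ereg, and 0.978 for Hbegf and Areg, while Egfr ran against them at -0.91, -0.92 and -0.90 for Areg, Ereg and Hbegf. Tgfa correlated less with these ligands (0.740 to 0.815), and Erbb3 little with any member (0.0127 to 0.366). These coefficients describe 9 arrays that share groups and slides. All coefficients with Ereg, those of its closest genes below included, also use its 3 pBOO readings, none of them well above background. Among 10103 other genes measured on all arrays, the closest to Areg were Gsta1 (0.996) and Sat1 (0.992), to Ereg Olfm4 and Gjb2 (both 0.999), and to Hbegf Pdia6 (0.994) and Ugdh (0.993). The closest to Egfr were Chka (0.997) and Zfp703 (0.987), to Tgfa Gna15 and Agpat2 (both 0.991), to Egf Cep19 (0.983) and Zfp763 (0.981), to Erbb2 Ubald1 (0.978) and H2aj (0.970), and to Erbb3 Pigw (0.973) and Abcg3l4 (0.959).

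The rest of the pathway was read from lists of genes by role, against a median over all 11047 genes of -0.04 for pBOO minus sham, 0.11 for tolterodine minus pBOO and 0.09 for tolterodine minus sham. The median of the 5 tested ligands was -2.10 for pBOO against sham (-1.33 with Ereg at its bound) and 2.75 for tolterodine against pBOO (2.63 with Ereg at its bound). The medians of the 3 receptors were 0.11 and 0.18. Of the other ErbB genes, Erbb4 was too dim to test and 3 neuregulins, ligands of Erbb3, Erbb4 or both, were tested. Nrg1 was lower in pBOO than in sham by a log2 difference of -1.39 (SE 0.36; limma adjusted p = 0.0138) and higher with tolterodine than in pBOO by 2.01. Nrg2 was lower in pBOO (-0.51; limma adjusted p = 0.0498). Nrg4 was higher in pBOO than in sham (0.81) and higher still with tolterodine than in pBOO (0.74; limma adjusted p = 0.0494). Of these 3 calls between pBOO and sham, fits that left out 1 array kept 1 to 2 (1 without pBOO 1, pBOO 3, sham 2 or sham 3), and 1 was left with normexp, with slide as a block or with a replicate block. Of the 2 calls between tolterodine and pBOO, 1 was left with normexp, with a replicate block or without any 1 of the tolterodine arrays, pBOO 1 or pBOO 3.

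Of 6 genes that cut ligands free or steer that step, 3 were higher and 1 lower in pBOO than in sham, with a median of 0.31. That is 66.7% against 42.5% of all genes. The metalloproteases Adam19 (1.29), Adam9 (1.13) and Adam15 (0.55) rose, and Rhbdf1, an inactive rhomboid that guides Adam17, fell (-0.49). Adam17, the main sheddase of Areg, Ereg, Hbegf and Tgfa, was -1.88 in sham, -1.81 in pBOO and -1.44 with tolterodine on average, a difference of 0.07 between the first pair that did not pass (limma adjusted p = 0.861). None of the 6 passed between tolterodine and pBOO in limma, with 0 under an unadjusted p of 0.05, and with slide as a fixed block 2 passed; Adam19 (1.47) and Adam15 (0.60) were above sham with tolterodine, a count of 2 that fell to 1 without tolterodine 1, tolterodine 2, sham 2 or sham 3. Without pBOO 1 or sham 3 the count of 4 between pBOO and sham fell to 2. Within the slide shared by pBOO and sham only 1 of the 6 passed, and it was lower.

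Of 31 genes of the ERK and phosphatidylinositol 3-kinase cascades, 10 were higher and 2 lower in pBOO than in sham (median 0.19), which is 38.7% against 42.5% of all genes. The largest rises were of Pik3r1 (2.01) and Pik3ca (1.06), the regulatory and catalytic subunits of phosphatidylinositol 3-kinase, and of the adaptor Crk (1.03). With tolterodine 3 were higher and 8 lower than in pBOO (median -0.08), 35.5% against 41.3% of all genes, among them the ERK-activated kinase Rps6ka1 (1.16), the adaptor Gab2 (0.89) and the phospholipase Plcg1 (-0.86). That balance of directions rested on the fit: with slide as a fixed block 7 were higher and 1 lower, with slide as a random block 5 were higher and 5 lower, and with normexp 2 were higher and 4 lower. Against sham, 6 were higher and 1 lower (22.6% against 24.4% of all genes), led by Pik3r1 (1.69), the adaptor Shc1 (1.20) and Gab2 (1.08). In all 3 comparisons the share of these 31 genes that passed was below that of all genes in this fit, but not in every setting. Between pBOO and sham it was 32.3% against 27.4% of all genes with normexp. Between tolterodine and pBOO it was 41.9% against 40.3% with array median scaling. Between tolterodine and sham it was 32.3% against 22% with quantile scaling. The count of 7 against sham fell to 4 without tolterodine 1, tolterodine 2, sham 2 or sham 3, and rose to 13 without sham 1.

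Of 16 negative regulators, 5 were higher and 4 lower in pBOO than in sham (median 0.01), 56.2% against 42.5% of all genes; with normexp 5 passed. The MAP kinase phosphatase Dusp4 fell (-0.95), while Spry2, an inhibitor of receptor signalling (0.95), and Errfi1, an inhibitor of the Egfr kinase (0.89), rose. With tolterodine 7 were higher and 3 lower than in pBOO (median 0.41; 62.5% against 41.3% of all genes), led by the phosphatases Ptprj (1.29), Dusp1 (1.13) and Ptpn1 (0.98). Against sham, 5 were higher and 0 lower (31.2% against 24.4% of all genes), led by Dusp1 (1.17), Ptprj (1.04) and Spred1 (0.86). Only 3 passed with normexp and without tolterodine 2 or sham 3.

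Of 15 genes known to be driven by ERK, 3 were higher and 3 lower in pBOO than in sham (median -0.40), 40% against 42.5% of all genes. Plaur, the urokinase receptor (-1.11), Ier3 (-1.03) and Myc (-0.98) fell, whereas Egr1 (0.95), the cyclin Ccnd1 (0.57) and Etv5 (0.44) rose. With tolterodine 9 were higher and 1 lower than in pBOO (median 0.47; 66.7% against 41.3% of all genes), led by Plaur (1.79), Ier3 (1.54) and Myc (1.37). Without tolterodine 1, tolterodine 2, pBOO 2 or pBOO 3 this count of 10 fell to 5, all of them higher, as it did with normexp; with slide as a fixed block 6 passed. Against sham, 5 were higher and 0 lower (33.3% against 24.4% of all genes), led by Egr1 (1.03), Etv5 (0.91) and Phlda1 (0.76). Only 2 passed without tolterodine 1, tolterodine 2, sham 2 or sham 3. Within the slide that pBOO shares with sham, 0 of 3 neuregulins (2 under an unadjusted p of 0.05), 5 of 30 cascade genes, 4 of 16 negative regulators and 4 of 15 ERK-driven genes passed, the last 4 all lower; 26.1% of all genes did. Within the slide that tolterodine shares with sham, 17 of 31 cascade genes, 11 of 16 negative regulators and 10 of 15 ERK-driven genes passed, and 53.2% of all genes did.

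**Figure D3:**
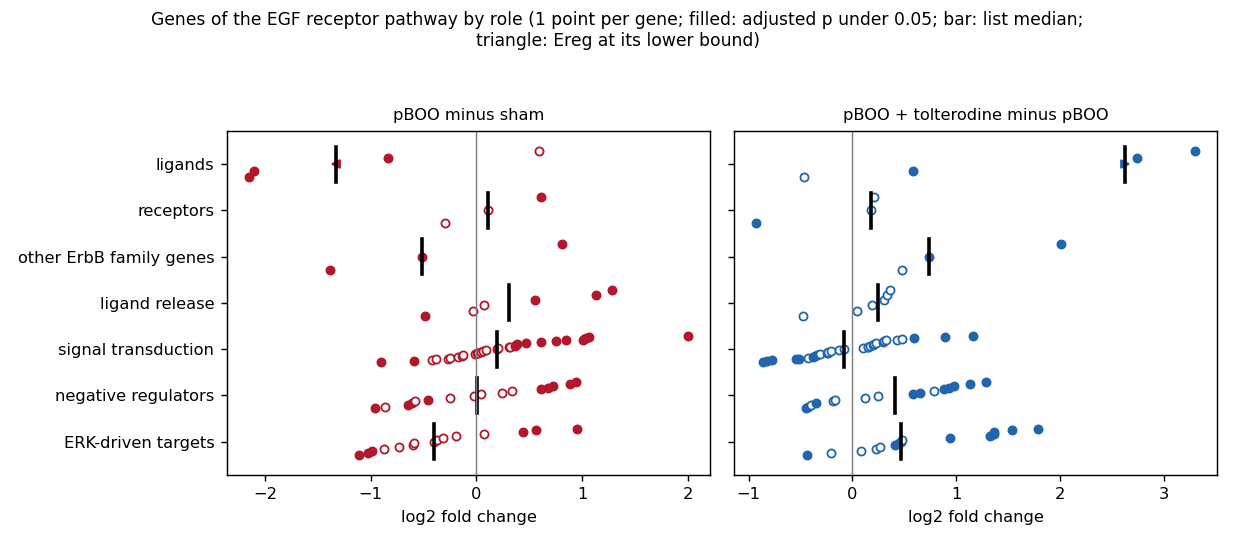
Log2 differences of the genes of each role for pBOO against sham and tolterodine against pBOO, with 1 point per gene, filled where the test was passed, a bar at the list's median and Ereg drawn as a triangle at its bound. Among the lists drawn, the ligands have the medians furthest from 0 (-1.33 and 2.63 with the bound), with Egf on the other side of 0 from the other 4 ligands in both comparisons. The members and lists were chosen with earlier results of these data known, so this order is only a description.

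Markers of the bladder's cell types moved over the same arrays, and in whole tissue fewer cells of a type and less RNA per cell cannot be told apart. Of all genes, 20.8% were called higher and 21.7% lower in pBOO than in sham. With tolterodine, 26% were called higher and 15.3% lower than in pBOO. Between pBOO and sham, 8 of 14 urothelial markers were lower and 0 higher (median -0.87), with Krt17 at -2.30 and Krt5 at -1.98, while Upk1b was -0.02 and did not pass. The mean level of that list was 2.29 to 2.85 on the sham arrays, 1.60 to 1.79 in pBOO and 1.75 to 2.11 with tolterodine. Within the slide shared by pBOO and sham 3 of 11 measured urothelial markers passed, 2 of them lower. Smooth muscle markers went the other way, with 7 of 8 higher in pBOO (median 2.52), among them Lmod1 (3.38) and Myh11 (2.59); Acta2 was 0.30 and did not pass. Their mean level was -0.03 to 0.31 in sham, 1.88 to 2.35 in pBOO and 0.60 to 0.71 with tolterodine. Against pBOO, tolterodine had 7 urothelial markers higher and 1 lower, and 7 smooth muscle markers lower. The urothelial count of 8 was 5 with slide as a fixed block or without tolterodine 3. With flagged spots kept, 11 of 18 urothelial markers passed, 7 of them higher and the others lower, against 41.9% of all genes. Urothelial Krt13 and neutrophil Ngp were too dim to test, and the uroplakins Upk1a, Upk2 and Upk3a and the muscle genes Des and Tagln were left out for flagged spots.

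Macrophage markers were lower in pBOO than in sham for 9 of 12 (median -0.82) and neutrophil markers for 5 of 6 (median -2.33, or -1.88 with Csf3r and Cxcr2, not well above background on any pBOO array, at their bounds). With tolterodine 11 of 12 and 6 of 6 were above pBOO. Of all genes, 21.7% were lower in pBOO than in sham and 26% were higher with tolterodine than in pBOO. The groups stand in the same order in both lists as for Areg, Hbegf and Ereg. The mean macrophage level was 0.21 to 0.58 in sham, -0.40 to -0.36 in pBOO and 1.26 to 1.76 with tolterodine. The mean neutrophil level was -2.74 to -2.15, -4.95 to -4.36 and -1.87 to -1.74 in the same order. Endothelial markers were higher in pBOO than in sham for 5 of 7 and fibroblast markers for 4 of 7, with 0 lower in either list. Of all genes, 20.8% were higher. With normexp 3 of 6 neutrophil markers passed in each of these comparisons with pBOO, and 3 of 7 endothelial markers passed between pBOO and sham. The shares of all genes with normexp were 27.4% between pBOO and sham and 27.2% between tolterodine and pBOO. The part of any of these lists in the differences of the ligands and of Egfr was not tested.

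**Figure D4:**
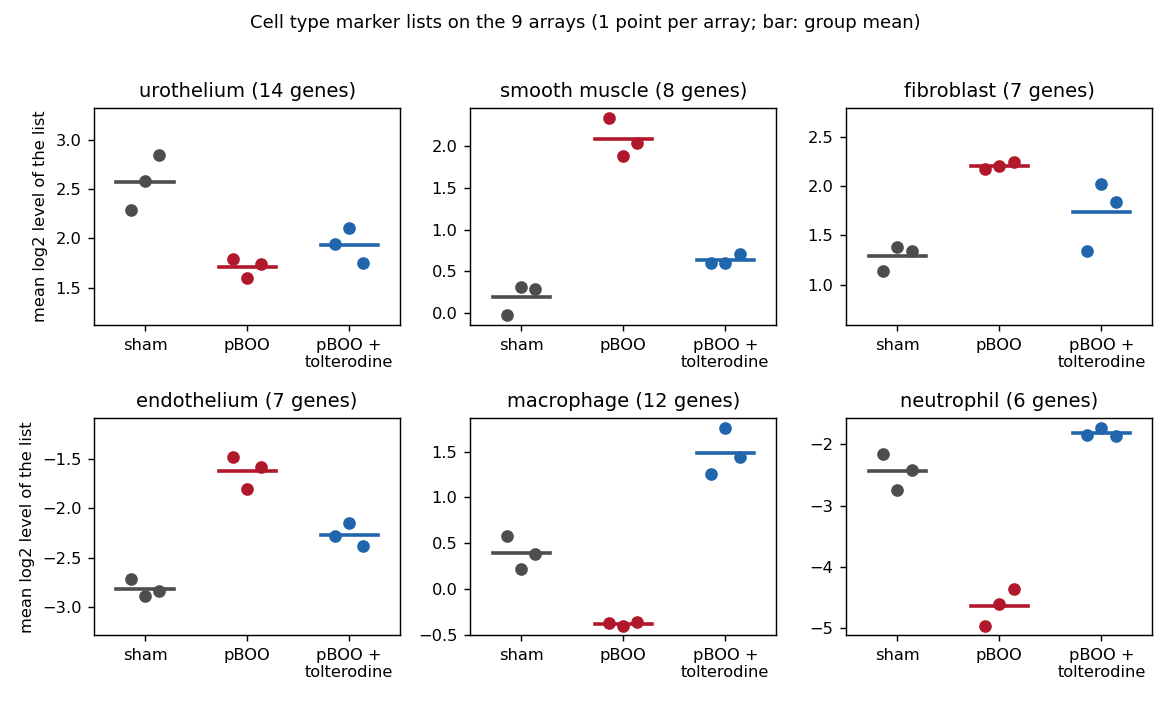
Mean log2 level of 6 lists of cell type markers on each array, with 1 point per array and a bar at the group mean. The macrophage and neutrophil lists were lowest on the 3 pBOO arrays and highest on the 3 tolterodine arrays, and the smooth muscle list was highest on the 3 pBOO arrays (1.88 to 2.35).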

How the data were processed

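Rat bladder RNA was measured on 9 1-colour Agilent arrays. The deposited values are spot intensities: per the file headers, Feature Extraction 11.0.1.1 subtracted background and detrended the processed signal, without normalization between arrays (the submitters' processing notes name version 9.1). The deposited quality flags are other values, 0 or 1. From these, the log2 intensity of 42877 non-control spots minus each array's 75th percentile was computed, flagged spots were set to missing and spots of a probe were averaged. Probes had to be well above background on at least 3 arrays (22144 of 30367 did), and a gene, named through RefSeq accessions (18005 probes had 1 symbol), needed 2 unflagged arrays per group; its brightest probe stood for it. For the 31 spots and 13 features of the 9 genes, 12 features were kept. Groups were compared by contrasts in 1 fit of all 9 arrays with limma 3.58.1 (R 4.3.3, with 6 residual and 2.78 prior degrees of freedom). The fit was also run on simulated data with independent noise on every array and no slide effect. That run cannot show how the p-values hold where groups and slides overlap. At an unadjusted p under 0.05, 5673, 5595 and 4242 genes passed in the 3 comparisons.

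The text names all members, the genes of each list with the largest called changes (up to 3 a list and comparison) and the 2 genes closest to each member; Adam17, Nrg2, Egr1, Ccnd1, Etv5, Upk1b and Acta2 were also named after their values were seen, as were examples of markers. The members and lists were chosen with earlier results of these data known. Alternatives changed the scaling, background, flags, dim filter, choice of feature, slide block, replicate block, the arrays in the fit, and left out each array in turn.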

Additional observations from a re-analysis of the deposited data

How the results depend on the processing

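Of 21 alternative settings, 9 of which left out 1 array, none reversed a called difference of a member. Areg, Ereg and Hbegf stayed called for pBOO against sham and for tolterodine against pBOO in each setting that could test them; under the normexp background Ereg read -0.98 and 1.48. The members called between pBOO and sham numbered 5 in each leave-one-out fit and 3, with 0 higher, within the shared slide; sham 1 is alone there and is assumed to vary like the pBOO arrays. Between tolterodine and pBOO leave-one-out fits called 4 to 5, and between tolterodine and sham 1 to 3, against 0 with normexp. Normexp called 3026, 3000 and 961 genes for pBOO against sham, tolterodine against pBOO and tolterodine against sham. Within a slide 2859 genes were called for the first and 5838 for the last, for which slide as a fixed or random block (correlation 0.626 within slides) called 4484 and 4276. Leave-one-out counts of genes ran from 3406 to 5143, 3396 to 4153 and 1413 to 3784 in the same order. Array scaling to the median ended the Areg call for tolterodine against sham (0.46) and made one for Egfr (-0.46); leaving dim features in also ended the Areg call (limma adjusted p = 0.0625). Averaging its features made an Egf call for pBOO against sham (0.64), and slide as a fixed or random block made Egf calls for tolterodine against pBOO (-1.09 and -0.91). Same-numbered arrays did not deviate together more than others (correlations -0.08 to 0.178 over 9 pairs, against -0.18 to 0.162 over 18 other pairs). With 3 arrays per group this cannot show whether the numbers pair arrays. A replicate block called 2331 genes and 3 members between tolterodine and sham, and no member's call changed. The number of arrays, and for Ereg, Egf and Btc the signal over background, limit these values.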

Other observations

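Areg and Ereg neighbour each other on chromosome 14 in the GRCr8 gene order, between Btc on one side and Epgn, Mthfd2l and the neutrophil chemokine genes Cxcl2 and Cxcl1 on the other. These neighbours were chosen for their place. Btc was too dim to test, and Epgn has no matched feature. The log2 difference of pBOO from sham was -0.77 for Mthfd2l, a mitochondrial folate enzyme, -2.64 for Cxcl2 and -3.83 for Cxcl1, all called by limma (adjusted p = 0.00163, 1.27e-05 and 1.65e-06). For tolterodine against pBOO it was 0.79, 3.65 and 4.36, again all called (limma adjusted p = 0.00159, 1.7e-06 and 1.33e-06). For tolterodine against sham it was 0.01 for Mthfd2l, which did not pass (limma adjusted p = 0.961), and 1.01 and 0.53 for Cxcl2 and Cxcl1, which did (limma adjusted p = 0.00294 and 0.0247). What neighbouring genes share in their control was not tested.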
